A study of Mus musculus with 4 samples.

Results

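A set of 10 genes of the contractile apparatus was followed across 4 arrays that compared mouse embryonic stem (ES) cells with reduced Fmr1 with their controls. They are the actin genes Acta2, Actg2, Acta1 and Actc1, the actin-binding genes Tagln and Cnn1, the tropomyosin genes Tpm1 and Tpm2, and the myosin genes Myl9 and Myh11. They were chosen by name, on the ground of array ratios already known from these data, in which Acta2 differed widely between arrays. All 10 were measured, by 27 of 45214 array features, and they are 10 of the 19083 genes that had a feature with a single gene symbol. The ratios below are therefore a description of the same comparison that chose the genes, and no p of a single member is given. Counts of members past a threshold stand beside the share of all genes, and nothing is read from them.

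The shFmr1 cells carried an RNA interference hairpin that targets exon 1 of Fmr1, the gene of the RNA-binding protein FMRP, and the shCT cells carried a random hairpin. A lentivirus that also encodes GFP brought in each hairpin, and sorted cells of either kind were kept as mixed populations, not clones. Each of the 4 arrays, numbered as replicates 1 to 4, held an shFmr1 and an shCT RNA sample (0.2 µg, RNA integrity number 9), with shFmr1 in Cy5 on replicates 1 and 3 and in Cy3 on replicates 2 and 4. The labels name no mouse strain or age and do not say whether replicates were separate cultures, so the spread between arrays may be technical. Values are the authors' deposited log ratios, read as log2 of shFmr1 over shCT. A positive value is thus a higher level in shFmr1 cells, and a value of 1 is a 2-fold difference. The log base is not stated and the direction is called likely, because Fmr1, the targeted gene, read -0.86, -1.65, -1.34 and -1.61 on replicates 1 to 4.

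Smooth muscle cells contract when myosin, whose regulatory light chain is encoded by Myl9 and whose smooth muscle heavy chain is encoded by Myh11, pulls on actin filaments. Tropomyosins lie along those filaments, and calponin (Cnn1) and transgelin (Tagln) bind them. Many of these genes are controlled by serum response factor (SRF), which binds CArG boxes in their promoters together with the cofactor myocardin or the actin-regulated myocardin-related factors. Acta2, Tagln, Cnn1 and Myl9 are not restricted to muscle, since spread fibroblasts and other mesenchymal cells also express them. A ratio carries no expression level, so the levels of these genes, or of ES cell markers, could not be read from these arrays. Channel intensities were not analysed here, and a gene that is not detected may also read near 0.

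The contractile genes were high in shFmr1 cells on 2 arrays and low on the others. On replicate 1 all 10 genes read above 0, with a median of 0.59, where 49.7% of all genes did. On replicate 2 again all 10 read above 0, with a median of 0.55, where 49.3% of all genes did. On replicate 3 the median was -0.25 and 7 of the 10 genes read below 0, where 47.7% of all genes did. On replicate 4 the median was -0.55 and all 10 read below 0, where 52.5% of all genes did. Ratios above 1 were read for 3 of the 10 on replicate 1 and 3 on replicate 2, against 0.194% and 0.65% of all genes, and ratios below -1 for 1 of the 10 on replicate 3 and 0 on replicate 4, against 1.02% and 0.288%. The medians of all genes on these arrays lay between -0.0137 and 0.0127. Every one of the 10 genes was thus above 0 on replicates 1 and 2 and below 0 on replicate 4, a combination found in 12.3% of all genes, and 7 of them were also below 0 on replicate 3, as in 5.65% of all genes. None of the 10 had the same sign on all 4 arrays, where 11.3% of all genes did.

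**Figure D1:**
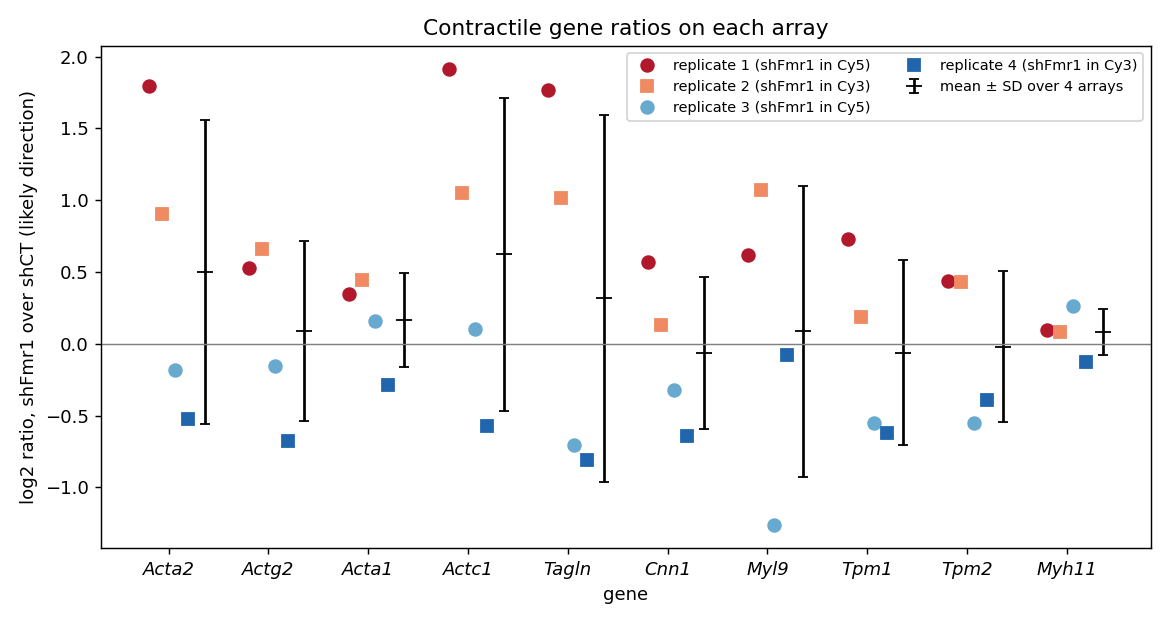
Log2 ratios of shFmr1 over shCT (vertical axis) for the 10 contractile genes (horizontal axis), with 1 point per array, coloured by replicate and shaped by dye orientation, and the mean ± SD over the 4 arrays in black. Replicates 1 and 2 lie above 0 for each gene and replicate 4 below 0, and each SD bar spans 0.

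Among the actin genes, Acta2, which encodes the alpha-actin of vascular smooth muscle, read 1.80, 0.90, -0.18 and -0.52 on replicates 1 to 4. This is 3.48-fold higher in shFmr1 cells on replicate 1 and 1.44-fold lower on replicate 4. On replicate 1 only 8 of the 19083 genes had a higher ratio. The mean was 0.50 ± 1.06 (SD, n = 4), so the mean is smaller than the spread between arrays.

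Actc1, the alpha-actin of cardiac muscle, read 1.92, 1.05, 0.11 and -0.58 and averaged 0.62 ± 1.09 (SD, n = 4). It was 3.77-fold higher in shFmr1 cells on replicate 1, where its log2 ratio lay above the mean of the Acta2 features, 1.80, and below their median, 2.43. It stayed slightly above 0 on replicate 3. Actg2, the gamma-actin of enteric smooth muscle, read 0.53, 0.66, -0.15 and -0.68 and averaged 0.09 ± 0.62. Acta1, the alpha-actin of skeletal muscle, read 0.35, 0.44, 0.16 and -0.29 and averaged 0.17 ± 0.32. All of the actin genes had replicate 4 as their lowest array, and Acta1 had the smallest range among them, 0.73 against 2.49 for Actc1, 2.32 for Acta2 and 1.34 for Actg2. The actin genes are close relatives, and whether RNA of an actin gene also bound features of another was not tested.

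The promoters of Acta2 and Actc1, which had the widest ranges among the actin genes, and of Acta1, which had the narrowest, are shown because SRF acts through CArG boxes in such promoters. Each is given 5′ to 3′ from 250 bases before to 50 bases after the gene's start, from RefSeq (GRCm38.p6), at chr19:34255324-34255623, chr2:114052826-114053125 and chr8:123894726-123895025, all on the minus strand. Capitals mark matches to the CArG box, either exact or with 1 of its 6 inner bases being G or C instead of A or T.
Acta2: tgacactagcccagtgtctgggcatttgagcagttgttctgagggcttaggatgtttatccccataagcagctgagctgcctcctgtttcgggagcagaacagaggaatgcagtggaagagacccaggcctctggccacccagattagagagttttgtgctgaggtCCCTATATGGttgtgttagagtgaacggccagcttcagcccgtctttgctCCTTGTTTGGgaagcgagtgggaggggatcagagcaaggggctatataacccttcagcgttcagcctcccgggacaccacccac
Actc1: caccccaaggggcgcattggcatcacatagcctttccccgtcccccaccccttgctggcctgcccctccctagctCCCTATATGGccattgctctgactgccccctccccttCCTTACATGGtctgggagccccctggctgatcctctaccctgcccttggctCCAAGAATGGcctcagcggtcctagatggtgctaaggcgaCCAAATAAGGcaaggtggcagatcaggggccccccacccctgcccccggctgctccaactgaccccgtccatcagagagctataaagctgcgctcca
Acta1: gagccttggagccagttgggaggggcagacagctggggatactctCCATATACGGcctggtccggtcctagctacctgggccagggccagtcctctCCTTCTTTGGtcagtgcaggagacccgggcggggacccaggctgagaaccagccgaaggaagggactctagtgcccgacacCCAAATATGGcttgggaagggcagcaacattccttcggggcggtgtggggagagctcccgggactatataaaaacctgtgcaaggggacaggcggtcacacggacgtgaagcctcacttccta
The Acta2 window held no exact box and 2 boxes with 1 base off, CCCTATATGG starting 84 bases and CCTTGTTTGG starting 34 bases before the gene's start. The Actc1 window held 1 exact box, CCAAATAAGG at 47 bases, and 3 boxes with 1 base off. The box at 175 bases had the same letters, CCCTATATGG, as the Acta2 box at 84 bases. The Acta1 window held 1 exact box, CCAAATATGG at 73 bases, and 2 boxes with 1 base off. RefSeq windows were matched for 7 of the 10 genes, and none was matched for Actg2, Tagln and Myh11. Of those 7 genes, 3 held an exact box (Actc1, Acta1 and Myl9), against 1.63% of 32851 promoter windows of the same length. With 1 base off allowed, 4 of the 7 held a match (Acta2 in addition), against 9.98% of all windows. The windows of Cnn1, Tpm1 and Tpm2 held none, which says only that these letters are not in these windows. The box reads the same way on both strands, and no other motif was searched. A match describes letters and alone does not show that SRF binds there. Of the actin genes, Actc1, with an exact box, had the widest array-to-array range (2.49), and Acta1, also with an exact box, the smallest (0.73). Acta2, without an exact box, lay between them (2.32), as did Actg2 (1.34), for which no window was matched. Whether the boxes bear on the ratios was not tested.

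The 14 Acta2 features show how far the gene values rest on single features. Of these, 12 carry the accession NM_007392, and 9 of the 12 read between 2.25 and 2.71 on replicate 1. The other 3 read 0.29, 0.71 and 1.53, so the 12 features averaged 2.11 ± 0.82 (SD over features) there. On replicates 2, 3 and 4 they averaged 1.01 ± 0.21, -0.23 ± 0.23 and -0.58 ± 0.18. The 12 features were all above 0 on replicates 1 and 2, 11 of them were below 0 on replicate 3, and all were below 0 on replicate 4. The features of the accessions AK033744 and AK077294 differed from them. AK033744 read -0.37, -0.08, 0.23 and -0.31, below 0 on the arrays where the other features were highest. AK077294 read 0.20, 0.61, -0.09 and -0.05, with the signs of most of the 12 features but nearer 0 than their mean on each array. From the 12 features alone, the mean of Acta2 over the arrays was 0.58 ± 1.23 (SD, n = 4). Features of a gene share its RNA and its array and are not replicates.

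**Figure D2:**
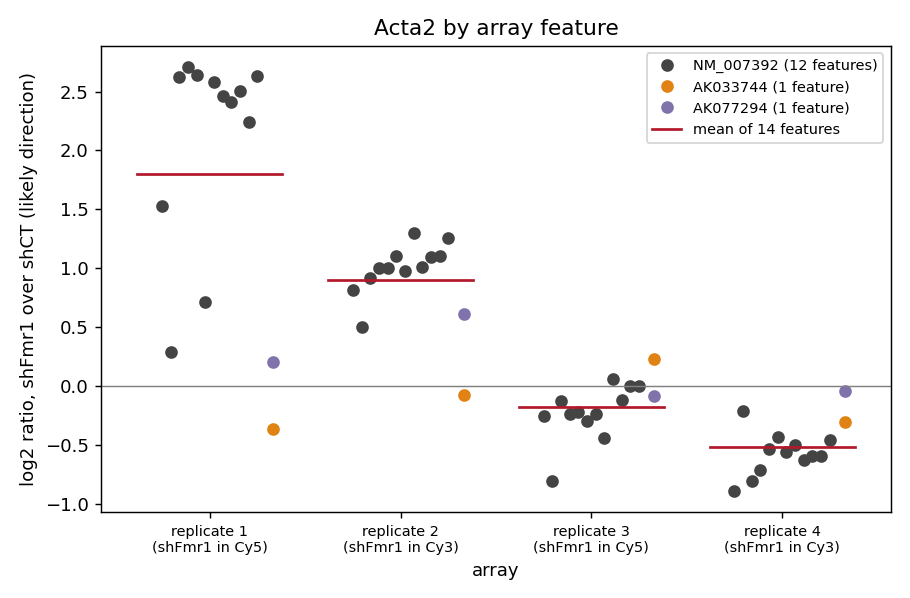
Log2 ratios of shFmr1 over shCT (vertical axis) for the 14 features of Acta2 on each array (horizontal axis), coloured by accession, with a red line at their mean. On replicate 1 a group of 9 features lies between 2.25 and 2.71 and the others spread down to -0.37, whereas on replicate 4 all 14 lie below 0.

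Of the actin-binding genes, Tagln, which encodes transgelin (SM22-alpha), read 1.77, 1.01, -0.71 and -0.81 on replicates 1 to 4, or 3.40-fold higher in shFmr1 cells on replicate 1 and 1.75-fold lower on replicate 4. Its mean was 0.32 ± 1.28 (SD, n = 4), the widest spread of the 10 genes. The features of Tagln agreed in sign on each array, at 1.76 and 1.77 on replicate 1 and at -0.93 and -0.68 on replicate 4. Cnn1, which encodes calponin of smooth muscle, read 0.57, 0.13, -0.32 and -0.64 from a single feature and averaged -0.07 ± 0.53. Both genes were higher on replicates 1 and 2 than on replicates 3 and 4.

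The tropomyosin genes had the signs of Tagln and Cnn1 on each array, with smaller ratios than Tagln. Tpm1 read 0.73, 0.19, -0.55 and -0.62 and averaged -0.06 ± 0.64 (SD, n = 4). Its 3 features were above 0 on replicates 1 and 2 and below 0 on replicates 3 and 4 without exception, with a range of 0.47 to 0.91 on replicate 1 and of -0.82 to -0.38 on replicate 4. Tpm2 read 0.44, 0.43, -0.55 and -0.39 and averaged -0.02 ± 0.53, and its 2 features also kept the sign of the gene on each array. Both means lie near 0, while single arrays reached 0.73 and -0.62 for Tpm1 and 0.44 and -0.55 for Tpm2.

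The myosin genes differed from each other. Myl9, the regulatory light chain, read 0.62, 1.07, -1.27 and -0.08 from a single feature and averaged 0.09 ± 1.02 (SD, n = 4). Its lowest array was replicate 3, where it was 2.40-fold lower in shFmr1 cells and only 122 genes had a lower ratio, while on replicate 4 it was close to 0. Myh11, the heavy chain most closely tied to differentiated smooth muscle, read 0.09, 0.08, 0.27 and -0.12 and averaged 0.08 ± 0.16. Myh11 was the only one of the 10 whose spread lay below the median spread of all genes.

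Across all genes the contractile genes stand at the wide end of the spread between arrays. The SD over the 4 arrays had a median of 0.63 in the 10 genes, between 0.16 for Myh11 and 1.28 for Tagln, against 0.21 over all 19083 genes. Of the 10 genes, 7 had an SD above 0.528, the 95th percentile, past which 5% of all genes lie by construction. Cnn1 (0.529) lay just inside that limit and Tpm2 (0.527) just outside it, with 950 and 960 genes above them. Tagln, Actc1, Acta2 and Myl9 formed the top, with 136, 194, 210 and 234 genes more variable than each of them. In each of the 10 genes the size of the mean was smaller than the SD. The genes were chosen with these values known, so these counts describe them and support nothing.

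**Figure D3:**
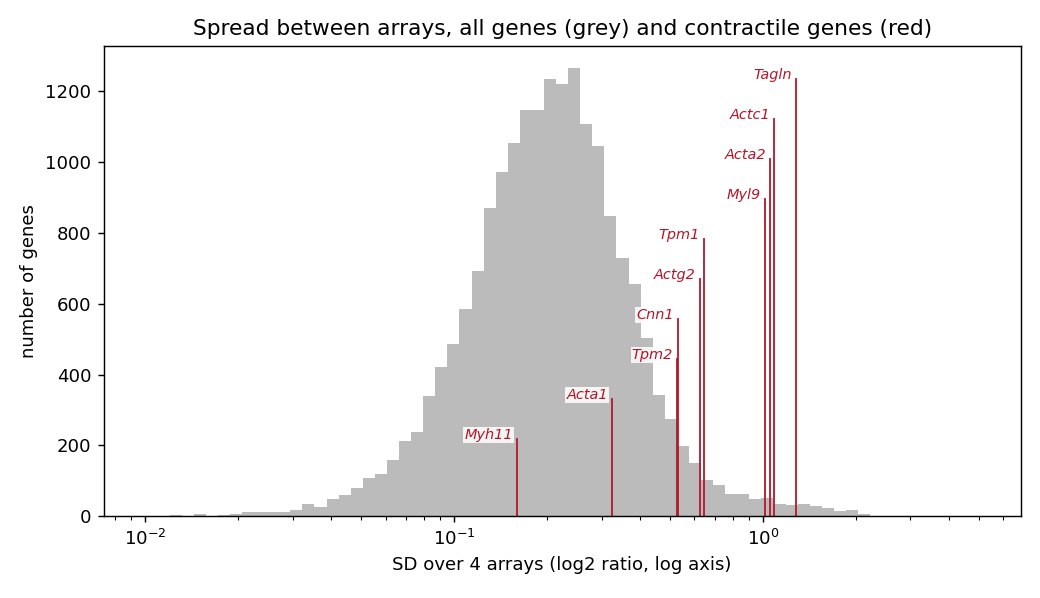
Number of genes (vertical axis) by the SD of their log2 ratios over the 4 arrays (horizontal axis, log scale), with the 10 contractile genes as labelled red lines of arbitrary height. Myh11 (0.16) and Acta1 (0.32) lie inside the main body of genes and Tagln (1.28), Actc1 (1.09), Acta2 (1.06) and Myl9 (1.02) in its upper tail.

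Each dye orientation held an array with high and an array with low ratios of the contractile genes. With shFmr1 in Cy5, 9 of the 10 genes were higher on replicate 1 than on replicate 3, Myh11 being the exception, and with shFmr1 in Cy3 all 10 were higher on replicate 2 than on replicate 4. Both orderings held for 24.2% of all genes. The mean of the Cy5 arrays minus that of the Cy3 arrays ranged from -0.82 for Myl9 to 0.77 for Actc1, with a median of 0.25. In the limma fit over all genes, the dye term had an unadjusted p under 0.05 in 0 of the 10 genes, against 1238 of 19083 genes. The genes were chosen with their spread between arrays known, so this count is no result about them. The part of the dyes in these ratios was not tested further.

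**Figure D4:**
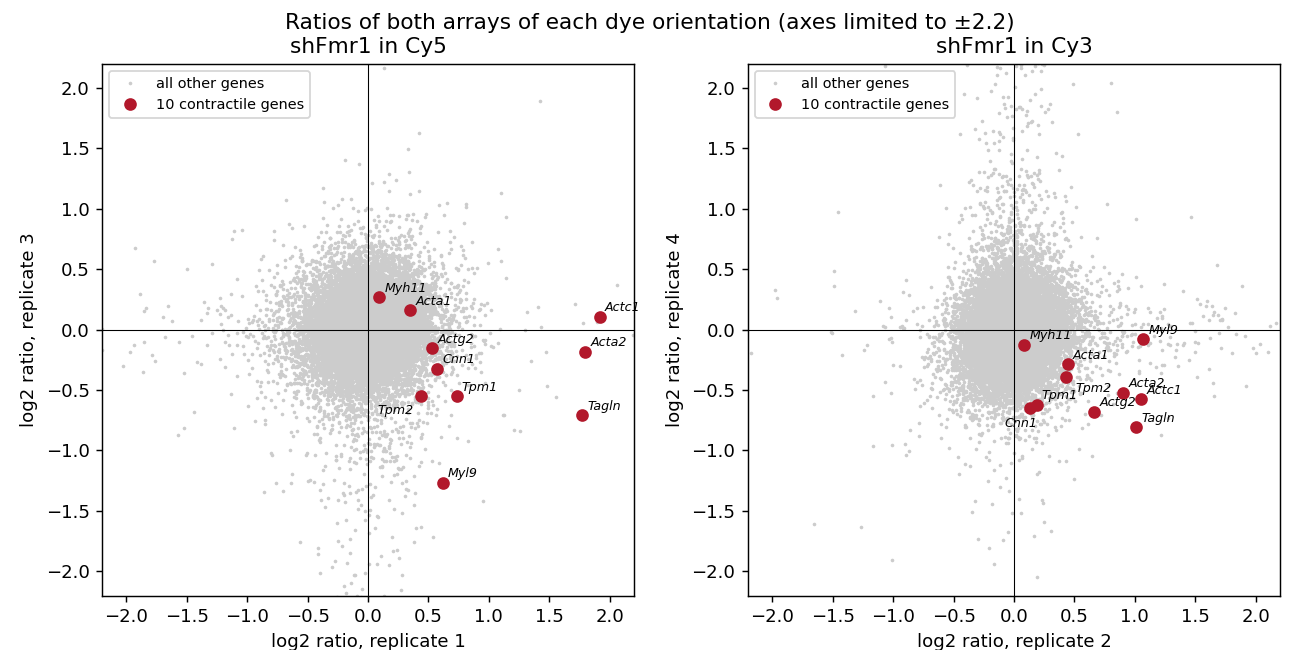
Log2 ratios of all genes (grey) and of the 10 contractile genes (red) on the arrays with shFmr1 in Cy5 (left, replicate 1 on the horizontal and replicate 3 on the vertical axis) and in Cy3 (right, replicate 2 and replicate 4). Genes beyond the axis limits are not drawn. In both panels most contractile genes lie in the lower right, positive on the horizontal and negative on the vertical axis, and on the right panel all 10 do.

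The mean comparison of shFmr1 with shCT averages over these opposing arrays. The means of the 10 genes ran from -0.07 for Cnn1 to 0.62 for Actc1, with a median of 0.09 against -0.0013 for all genes, and 7 of the 10 were positive, where 49.5% of all genes were. In the limma fit over all genes, 0 of the 10 had an adjusted p under 0.05, as did 0% of all genes, and before adjustment 0 of the 10 had a p under 0.05, against 3.77% of all genes (1.71% higher and 2.05% lower). Since the genes were chosen with opposing arrays in view, their means were set against a wide spread from the start, and these counts of 0 are no result about them. The order of the means was Actc1, Acta2, Tagln, Acta1, Actg2, Myl9, Myh11, Tpm2, Tpm1 and Cnn1. The place of Acta2 depends on its features, since it averaged 0.30 with 1 feature per gene and, with the median over features, 0.68, above Actc1. No neighbours in this order differ by more than their spread between arrays. The sign of several means rests on single arrays. Without replicate 1, with the dye term kept, Tagln became -0.30, Myl9 -0.39 and Actg2 -0.082. Without replicate 2 these became -0.14, -0.20 and -0.25, and Acta1 became -0.017. Without replicate 3, Cnn1, Tpm1 and Tpm2 became 0.16, 0.26 and 0.23, and without replicate 4 they became 0.13, 0.14 and 0.19. Acta2 was 0.0033 without replicate 1. RNA came from whole cultures, so more contractile cells and more RNA per cell cannot be told apart.

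Genes of the SRF axis, which control contractile genes, had list medians nearer 0 on each array. Of 15 measured, 3 were above 0 on replicates 1 and 2 and below 0 on replicate 4, where 12.3% of all genes were, and the list medians were 0.12, 0.03, 0.05 and -0.055. Srf read 0.15, -0.34, 0.07 and -0.13, and Myocd, the gene of myocardin, read -0.03, -0.03, -0.16 and 0.17. The myocardin-related factor genes Mrtfa and Mrtfb averaged -0.06 ± 0.23 and 0.09 ± 0.16. The means of this list ran from -0.21 for Rock1 and -0.09 for Elk1, a kinase and an SRF partner, to 0.18 for the GTPase gene Rhoa and 0.33 for Csrp2, a LIM-domain gene of smooth muscle. Here 0 of 15 passed the adjusted test in either direction, as did 0% of all genes, and 1 was higher and 0 lower at an unadjusted p under 0.05. For this list and those that follow, the shares of all genes at that unadjusted p are 1.71% higher and 2.05% lower.

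Further genes of smooth muscle and of SRF control followed in part. Among 23 other smooth muscle genes, 6 were above 0 on replicates 1 and 2 and below 0 on replicates 3 and 4, where 5.65% of all genes were. The list medians were -0.03, 0.11, -0.06 and -0.09. The numbers above 0 on replicates 1 to 4 were 10, 15, 7 and 10 of the 23, against 49.7%, 49.3%, 52.3% and 47.5% of all genes. Cnn2, a calponin gene of many cell types, read 0.64, 0.62, -0.59 and -0.78. Cald1, the actin-binding caldesmon gene, read 0.24, 0.15, -1.05 and -0.15. The means of this list were lowest for Pdlim7 (-0.21) and Cald1 (-0.20) and highest for Synm (0.31) and Ppp1r14a (0.38). Pdlim7 was below 0 on all 4 arrays (-0.09, -0.17, -0.15 and -0.43) and Ppp1r14a above 0 on all 4 (0.60, 0.25, 0.61 and 0.04). Synm read -0.16, 0.43, -0.08 and 1.07, highest on replicate 4. In this list 0 of 23 passed the adjusted test, and 2 were higher and 0 lower at an unadjusted p under 0.05. Among 14 early and adhesion targets of SRF, 4 were above 0 on replicates 1 and 2 and below 0 on replicates 3 and 4 (5.65% of all genes). These were Fosb, Ankrd1, Ccn1 and Zyx. Ccn1, a matricellular gene, read 0.43, 0.27, -0.52 and -0.67. The lowest means were those of Egr1 (-0.59) and Junb (-0.28) and the highest those of Fosb (0.10) and Ankrd1 (0.11). Of these 14 genes 0 passed the adjusted test, and 0 were higher and 2 lower at an unadjusted p under 0.05. Cnn2, Ccn1 and Zyx were named after their values were seen, for having the signs of most contractile genes and an SD in the top 10 percent.

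Non-muscle relatives had list medians with the signs of the contractile genes on each array. The list medians of striated muscle genes had the opposite signs but lay near 0. Of 16 non-muscle actin, myosin and tropomyosin genes, 5 had the signs of Tagln on the 4 arrays (5.65% of all genes), and the list medians were 0.09, 0.06, -0.37 and -0.098. The numbers above 0 on replicates 1 to 4 were 11, 10, 1 and 3 of the 16, against 49.7%, 49.3%, 52.3% and 47.5% of all genes. The cytoplasmic actin Actb read 0.32, -0.18, -0.45 and -0.02, and Actg1 read 0.15, 0.02, -0.65 and -0.10. The means of this list ran from -0.29 for Pfn1 and -0.17 for Cfl1 to 0.10 for Capzb and 0.12 for Tmsb4x. Here 0 of 16 passed the adjusted test, and 0 were higher and 1 lower at an unadjusted p under 0.05. Of 26 striated muscle genes, 2 were above 0 on replicates 1 and 2 and below 0 on replicate 4 (12.3% of all genes). Their list medians were -0.06, -0.05, 0.02 and 0.05. On replicates 1 to 4, 9, 11, 15 and 17 of the 26 were above 0, against the same shares of all genes. Their means ran from -0.55 for Ckm and -0.31 for Tnnc2 to 0.21 for Nppb and 0.26 for Actn2, a sarcomeric alpha-actinin gene. Of the 26, 0 passed the adjusted test, and 1 was higher and 2 lower at an unadjusted p under 0.05.

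**Figure D5:**
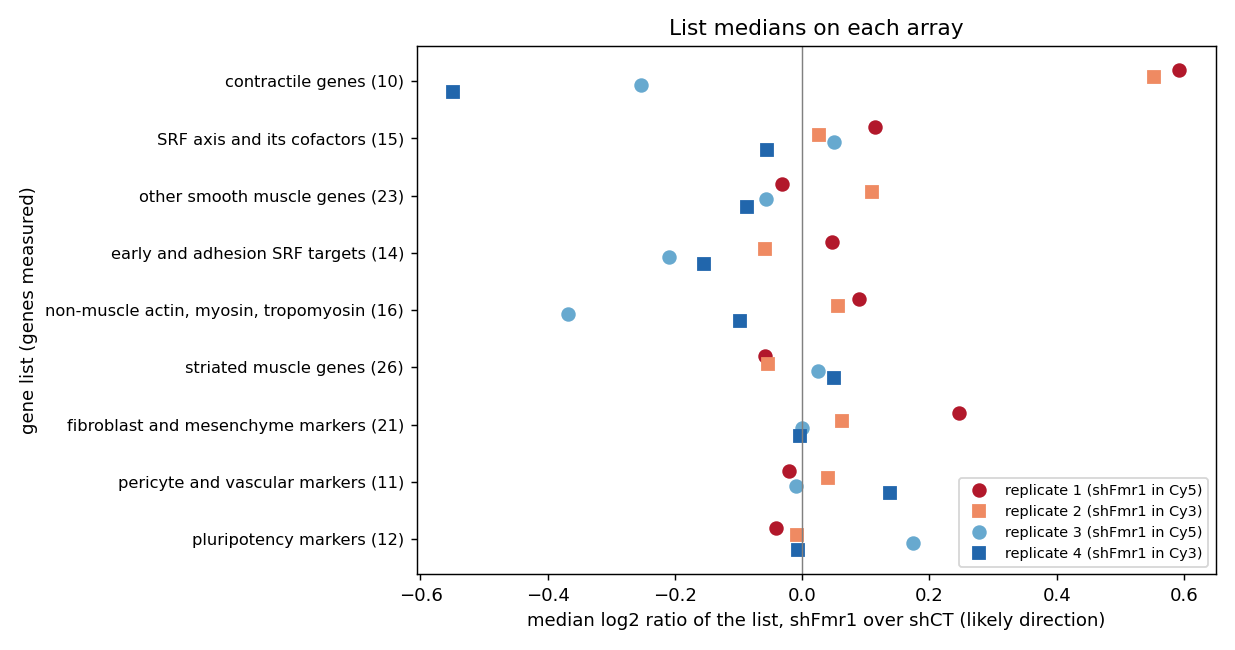
Median log2 ratio of shFmr1 over shCT (horizontal axis) of the contractile genes and of 8 other gene lists (vertical axis, number of genes measured in brackets) on each array, coloured by replicate and shaped by dye orientation. The contractile genes run from -0.55 on replicate 4 to 0.59 on replicate 1, and every other list median lies between -0.37 and 0.25.

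Markers of other cell types moved with the contractile genes in part. Of 21 fibroblast and mesenchyme markers, 19 read above 0 on replicate 1 with a median of 0.25, where 49.7% of all genes did. On replicate 2, 14 read above 0 with a median of 0.06, where 49.3% of all genes did. On replicates 3 and 4, 10 of the 21 read above 0, near the shares of all genes, 52.3% and 47.5%. The medians there were -0.00077 and -0.0033. Of the 21 markers, 8 were above 0 on replicates 1 and 2 and below 0 on replicate 4, or 38.1%, where 12.3% of all genes were. The type I collagen gene Col1a1 read 2.19, 0.54, -0.05 and -0.99, and its partner Col1a2 read 0.93, 0.32, 0.21 and -0.56. The means of this list were lowest for S100a4 (-0.41) and Thy1 (-0.18) and highest for Col5a1 (0.32) and Col1a1 (0.42). Of these genes, 3 did not have the signs of the contractile genes. Thy1 read -0.45, -0.30, -0.27 and 0.29 on replicates 1 to 4, below 0 on replicates 1 and 2 and above 0 on replicate 4. Col5a1 read 0.16, 0.28, 0.18 and 0.66, highest on replicate 4. S100a4 read 0.13, -0.29, -1.09 and -0.39, below 0 on replicate 2. In this list 0 of 21 passed the adjusted test, and 2 were higher and 0 lower at an unadjusted p under 0.05. The part of such cells in the contractile ratios was not tested.

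Vascular and pluripotency markers gave list medians near 0 on most arrays. The medians of 11 pericyte and vascular markers were -0.020, 0.041, -0.0096 and 0.14, with means from -0.09 for Abcc9 and -0.06 for Kcnj8 to 0.40 for Mcam and 0.59 for Cspg4, which read 2.42 on replicate 1 and between -0.26 and 0.24 on the others. The medians of 12 pluripotency markers were -0.042, -0.0082, 0.17 and -0.0072, with means from -0.14 for Klf2 and -0.10 for Pou5f1 to 0.26 for Lin28a and 0.33 for Nanog. In these lists 0 genes passed the adjusted test, and at an unadjusted p under 0.05 the numbers higher were 1 of 11 and 2 of 12, with 0 lower in either.

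The genes with ratios closest to those of Acta2 were sought by Euclidean distance over the 4 arrays among the 19082 other genes. Actc1 was the nearest of all at 0.35 and Tagln the third at 0.61. The nearest genes outside the contractile set were Anxa1, which encodes the phospholipid-binding annexin A1, at 0.54, the TALE homeobox gene Meis2 at 0.67, Col1a1 at 0.73, and the homeobox genes Hoxb2, Hoxb5 and Hoxa7 at 0.77, 0.88 and 0.93. Anxa1 read 1.47, 1.27, -0.19 and -0.74. Hoxb2 read 2.06, 1.21, 0.36 and -0.87, and Meis2 read 1.25, 0.73, -0.50 and -0.37. Actg2 and Tpm1 ranked 42 and 50 by distance, and Myh11 ranked 4689. Distance depends on the size of the ratios, so members with small ratios are far from Acta2 even where all signs agree.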

How the data were processed

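The data are 4 two-colour Agilent arrays, labelled with the Low RNA input QuickAmp kit per the labels' protocols. The authors' deposited table holds a log ratio per feature and array, read here as log2 values. The values had means near 0, at 1.1e-05, -3.1e-06, 1.7e-05 and -1.0e-05 on replicates 1 to 4, as if centred before deposit. Their medians were 0.0072, -0.012, 0.020 and -0.023, and no value was missing. The sources used here give neither scanner software nor normalization, log base or direction. The largest absolute value was 5.84. No channel intensities were analysed here, so no filter on dim features was possible, and the number of arrays limits the precision. All 4 titles share 1 slide number, so the arrays cannot be split by slide.

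Gene names come from the platform's annotation of 2016, which gives a single symbol to 33649 of the 45214 features, several to 56 and none to 11509. Only features with a single symbol were kept. The 27 member features kept their symbols in the RefSeq gene table. Features were averaged per gene and array. A model of the shFmr1 effect plus a dye term was fitted to all genes in limma 3.58.1 under R 4.3.3, with Benjamini-Hochberg adjustment over all genes and a threshold of 0.05. The fit was run on simulated independent ratios with shifts far larger than any mean of the contractile genes. That run checks the code and not how the fit performs at such means. Members and lists were chosen with earlier results of these data known. Beside the members, the rule named the highest and lowest 2 genes of each list by mean, Srf, Myocd, Mrtfa, Mrtfb, Actb, Actg1, Col1a1, Col1a2 and Fmr1, and the 6 genes nearest to Acta2. The settings varied were the dye term, centring, scaling, quantile normalization, other summaries of features, natural logs, a robust variance model and leaving out each array.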

Additional observations from a re-analysis of the deposited data

Results flagged for a closer look

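Of 67 results (the members, the other named genes and the list medians), the gap from 1 array to its neighbours was past Dixon's 95% critical value in 3, while about 1 in 20, or 3.35, are expected by chance. None of them is a contractile gene of the set. Cfl1, which encodes the actin-severing protein cofilin, read 0.38 on replicate 2 and between -0.39 and -0.33 on the others. Ckm, the muscle creatine kinase gene, read -2.03 on replicate 3 and between -0.19 and 0.12 on the others. The median of the pluripotency markers was 0.17 on replicate 3 and between -0.042 and -0.0072 on the others.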

How the results depend on the processing

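The signs of the 10 genes on each array were the same as reported in all 280 values from 7 other settings. These were median centring, scaling, quantile normalization, the median over features, 1 feature per gene, natural logs and Acta2 from its NM_007392 features alone. Many of these agreements were fixed beforehand. Natural logs and scaling multiply by a positive number and cannot change a sign. The feature summaries leave the 6 genes with a single feature as they are, and the Acta2 setting changes Acta2 alone. Applying these settings to single arrays, and that Acta2 setting, were chosen after seeing the data. The 110 recomputed means of the 10 genes moved by less than the spread between arrays. For the 40 with an array left out this was fixed beforehand, since such a shift is below that spread for any values. Natural logs could not exceed it either, because each mean was smaller in size than its SD. Of the 110 means, 15 changed sign, 13 of them on leaving out an array and 2 with quantile normalization (Tpm1 to 0.029, Tpm2 to 0.013). The median of the 10 means ranged from -0.17 to 0.36 on leaving out an array and was 0.15 with quantile normalization. Over all genes, 0 passed the threshold, against 2 with quantile normalization and 0 to 87 on leaving out an array (25 without replicate 1, 87 without replicate 2, 10 without replicate 3), and 0 of the 10 contractile genes passed in any setting. With an array left out, an array stands alone in its orientation and its error does not enter the residual spread. No paired analysis was possible because each value is already the ratio of both RNAs of an array.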
